A study of Sus scrofa with 16 samples.

Results

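The step described here is the growth of the pig conceptus (the embryo with its extraembryonic membranes) from the small spherical stage, 1 to 5 mm long, to the large spherical stage, 6 to 11 mm long. Its members are the 8 arrays whose sample titles name one of these stages, 4 arrays each, out of 16 arrays in all. The other 8 arrays, from later tubular and filamentous conceptuses, served to estimate the spread between arrays and are otherwise named only where stated. All samples were Sus scrofa. Total RNA was amplified, labelled with phosphorus-32 and hybridised to membranes that carried pig cDNA. The labels used here name no breed, day of pregnancy or treatment, and they do not say how many conceptuses or litters went into a sample. P-values therefore measure the spread between these samples, which may be technical, and 4 arrays a stage limit the precision. RNA of a whole conceptus cannot tell fewer cells of a type from less RNA per cell.

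At these stages the conceptus lies free in the uterus and grows as a hollow ball, before it stretches into a thread. Its outer epithelium, the trophectoderm, releases oestrogens, which in the pig signal pregnancy to the mother. Oestrogen synthesis starts when STAR brings cholesterol into the mitochondrion, where CYP11A1 cuts its side chain. CYP17A1 then leads to androgens, and CYP19A1, the aromatase, turns these into oestrogens.

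The table held 1015 probes, of which 1014 varied and were tested, and array medians lay between 62.8 and 71.4 intensity units. Small spherical replicate 3 stood nearer to the large spherical arrays (mean Spearman 0.931 across probes) than to the other small spherical ones (0.914), and small spherical replicate 1 about as near to them (0.876) as to its own stage (0.873). Named calls that came or went without replicate 3 are given below. Of 14 trophectoderm markers 7 had a probe named here, and their summed intensity per array ran from 414 to 797 in small and from 669.9 to 879 in large spherical samples. Within that sum PDPN read 12.6 to 163 and 148 to 203, whereas KRT18, the brightest member, read 219.8 to 312 and 224.7 to 316.6. Sums for hypoblast and yolk sac endoderm (6 of 14 markers) were 352 to 459 and 365 to 432, and for mesoderm (4 of 8) 134 to 149.5 and 125 to 134.5. DPPA5, the single measured one of 7 epiblast markers, read 3.1 to 15.5 and 7.82 to 15, and ACP5, the single one of 5 for maternal uterine epithelium, 19 to 31.6 and 9.65 to 25.7. None of the 7 blood and immune markers had a probe named here. No value in the whole table was 0, its minimum being 0.12. The lowest marker value, 1.35 for T on large spherical replicate 2, was the minimum of that array. The part of these marker levels in the results was not tested.

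STAR rose between the 2 stages. It read 38.8, 31.8, 50.8 and 38.8 on small spherical replicates 1 to 4 and 84.6, 131, 145 and 178 on large spherical replicates 1 to 4. Every large spherical value lay above every small spherical one, and replicate 1 was the lowest of its stage in the large conceptuses. The fitted rise was 3.29-fold (log2 difference 1.72 ± 0.23 SE, n = 4 and 4, limma, adjusted p = 0.00207). It passed in 30 of 30 alternative settings (adjusted p of 0.000305 to 0.0428). Here and below, ± after a log2 difference gives the SE, and ± after a mean intensity gives the SD of 4 arrays.

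TGFB3, a secreted ligand of the transforming growth factor beta family, rose as well. It was dim in small conceptuses, at 1.79, 3.2, 14.5 and 3.91, and read 26.1, 54.7, 52.4 and 55 in large ones. On small spherical replicates 1, 2 and 4 its values equalled those of GCM1, where the array minima were 1.25, 3 and 1.73. Spherical arrays held 159 to 248 distinct values each, so probes often shared a value. Small spherical replicate 3 was the highest of its stage and large spherical replicate 1 the lowest of its own, and the groups did not overlap. The log2 difference was 3.41 ± 0.62 (limma, adjusted p = 0.0212; with small spherical replicate 3 left out it was 0.00148). The difference ran from 1.87 to 4.00 over the alternatives, the low end being that with an offset of 10 before log2. Left out singly, small spherical replicates 1, 2 and 4 and large spherical replicates 2, 3 and 4 each ended the call, as did a fit on the 8 spherical arrays alone (adjusted p of 0.0608 to 0.103).

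The other probes past the threshold, an adjusted p below 0.05, are unnamed in the platform annotation used here. Probe 954 read 19.1, 19, 37.4 and 27.9 and then 73.6, 91.4, 124 and 103 (1.96 ± 0.37, limma, adjusted p = 0.0229). Probe 1010 read 60.2, 46.2, 47 and 45.3 and then 79.1, 113, 132 and 126 (1.16 ± 0.20, adjusted p = 0.0148). Neither overlapped between the stages. Probe 954 lost its call when any of small spherical replicates 1, 2 and 4 or large spherical replicates 2, 3 and 4 was left out (0.067 to 0.113). Probe 1010 lost it in the same way for small spherical replicates 2 and 4 and large spherical replicates 2, 3 and 4, and on the 8 spherical arrays alone with and without the replicate number as a block (0.0551 to 0.157).

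Over all probes, 4 of 1014 rose (0.394% of those tested) and 0 fell by limma (0.0%). At an unadjusted p below 0.05, 73 probes (7.2%) were higher and 22 (2.17%) lower in large conceptuses, 9.37% in all. Probes or genes with such a p are said to lean in what follows. With no true difference, about 50.7 probes (5%) would lean over both directions together. Split evenly between the directions, that share would exceed the 2.17% that leaned lower. On 39 probes (3.85%) all large spherical values exceeded all small spherical ones, and on 12 probes (1.18%) all lay below them. More probes had a negative than a positive difference, 549 (54.1%) against 465 (45.9%), and the median was -0.03 on the log2 scale. The bulk of the probes thus lay slightly below 0 while those with a small p lay mostly above it.

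Single arrays moved the count of 4. Without small spherical replicate 3 it was 26, of which 24 were higher and 2 lower, and without filamentous replicate 1 it was 11, of which 9 were higher and 2 lower. It was 1 when any of small spherical replicates 2 and 4 and large spherical replicates 2, 3 and 4 was left out, and 6 on the arrays numbered 2 to 4. A block for the replicate number gave 5 calls, and the count of lower-leaning probes went from 22 to 36.

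**Figure D1:**
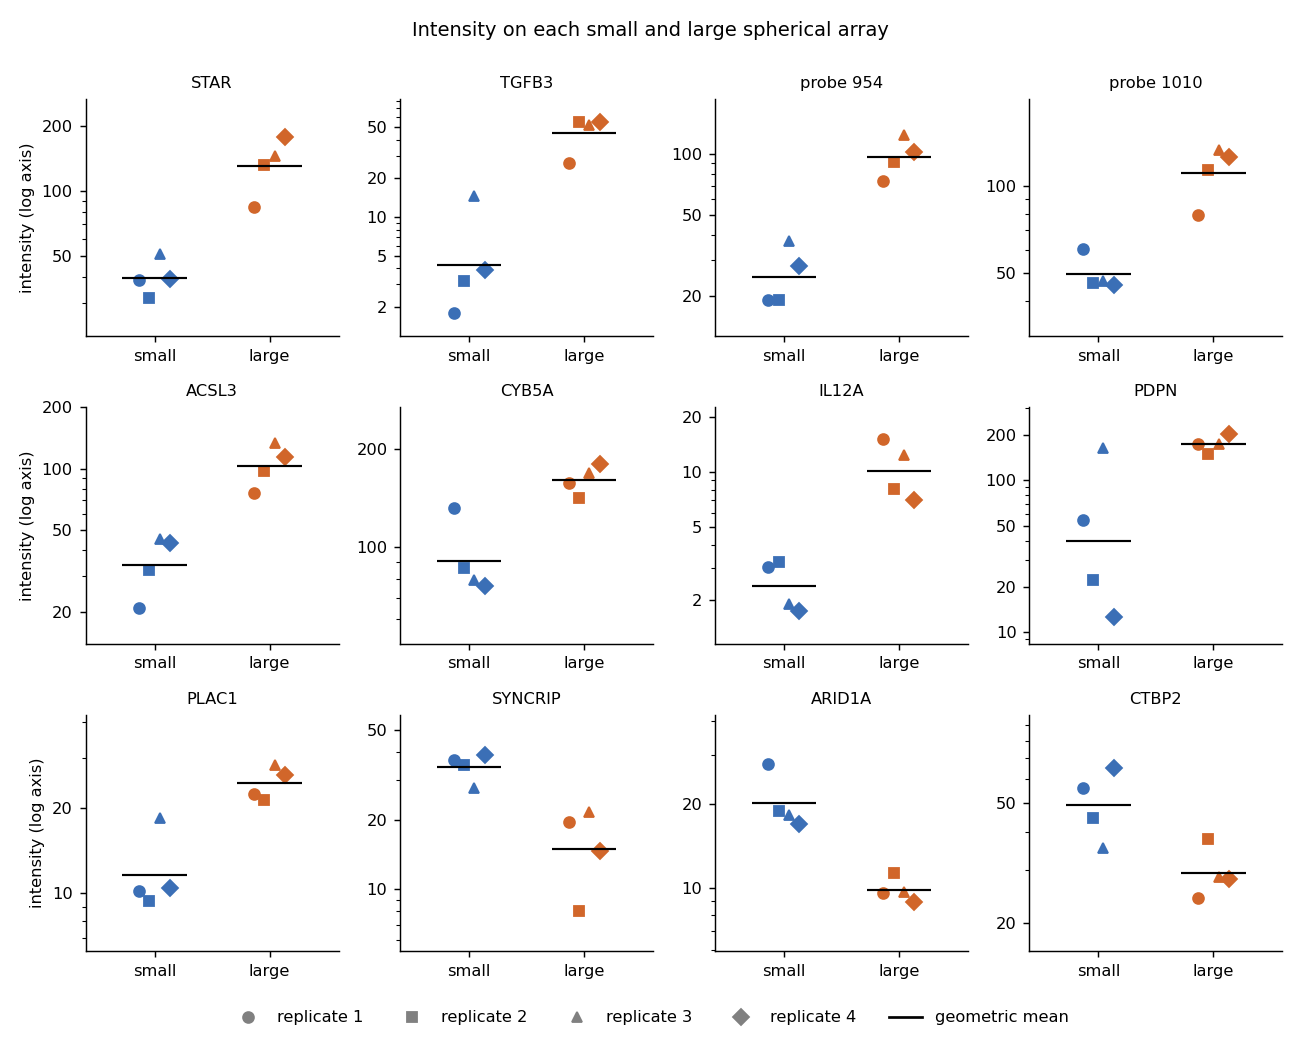
Intensity (log axis) of the 4 probes that passed the threshold and of 8 named genes that did not, on each small and large spherical array; marker shapes give the replicate number, black bars the geometric mean of 4 arrays, and SYNCRIP is probe 263. STAR separates the stages (31.8 to 50.8 against 84.6 to 178), whereas in PDPN small spherical replicate 3, at 163, lies among the large spherical values.

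ACSL3 and CYB5A were higher on every large than on any small spherical array but did not pass. ACSL3, a long-chain acyl-CoA synthetase, read 20.9, 31.8, 45.1 and 43.2 and then 76.3, 98, 134 and 114 (log2 difference 1.62 ± 0.35, adjusted p = 0.0545, limma). It passed under a block for the replicate number (1.62 ± 0.27, adjusted p = 0.0138), without small spherical replicate 3 (1.76 ± 0.38, adjusted p = 0.0323) and in 11 of 30 alternatives in all (0.0055 to 0.142). CYB5A, a cytochrome b5 that supplies electrons to microsomal enzymes, read 132, 86.1, 79.4 and 75.9 and then 158, 141, 169 and 179.7 (0.83 ± 0.18, adjusted p = 0.0545). Small spherical replicate 1 held the highest value of its stage, and CYB5A passed without that array (1.00 ± 0.15, adjusted p = 0.00554) and in 9 of 30 alternatives in all.

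5 further genes separated the stages without passing. CALD1, the actin-binding caldesmon, read 149, 137, 144 and 80.2 and then 233, 279.7, 202 and 212, with small spherical replicate 4 far below the other arrays (0.89 ± 0.21, adjusted p = 0.0669, limma). SMAD4, which carries signals of the TGF beta family to the nucleus, read 97.7, 86.1, 97.5 and 95.5 and then 136, 158, 128 and 159 (0.62 ± 0.15, adjusted p = 0.0669). Its small spherical values were close together, and its difference was the smallest of these 5 genes. CTSC, the lysosomal protease cathepsin C, read 42.3, 31.8, 41.2 and 47.5 and then 70, 84.7, 114 and 89.5 (1.13 ± 0.26, adjusted p = 0.0669). TM4SF1, a membrane protein of the L6 family, read 19.2 to 27.9 and 31.1 to 39.8 (0.68 ± 0.16, adjusted p = 0.0683). IL12A, a subunit of interleukin 12, read 3.03, 3.2, 1.91 and 1.73 and then 15.1, 8.02, 12.3 and 7 (2.09 ± 0.46, adjusted p = 0.0545), all at the dim end of these arrays. Its 1.73 on small spherical replicate 4 was the minimum of that array. These 5 genes passed in 2 to 7 of the alternatives each. Without small spherical replicate 3, CALD1 (0.96 ± 0.23, adjusted p = 0.0343) and TM4SF1 (0.79 ± 0.16, adjusted p = 0.0304) passed.

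A further set had slightly larger p-values. SOD1, the cytosolic superoxide dismutase, read 65 to 129 and 152 to 215 (0.82 ± 0.21, adjusted p = 0.0878, limma), and CARHSP1, an RNA-binding phosphoprotein, 36.6 to 90.8 and 93.7 to 128 (0.95 ± 0.27, adjusted p = 0.137). Both passed without small spherical replicate 3, SOD1 at 0.94 ± 0.21, adjusted p = 0.0343 and CARHSP1 at 1.16 ± 0.27, adjusted p = 0.0343. HMGB1, an abundant chromatin protein, read 67.2 to 149.5 and 151 to 195 on probe 932 (0.78 ± 0.21, adjusted p = 0.0887), and it passed without small spherical replicate 1 (0.98 ± 0.18, adjusted p = 0.0232). Its other probe averaged 51.5 ± 26.8 and 36.3 ± 11.7 and had a difference of the opposite sign (-0.43 ± 0.41), so that the probes of HMGB1 disagreed.

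No gene fell past the threshold. The smallest p in this direction belonged to probe 263 of SYNCRIP, an RNA-binding protein of the hnRNP family, singled out here after its values were seen. It read 37, 35, 27.9 and 38.8 and then 19.7, 8.02, 21.7 and 14.7, with no overlap (-1.20 ± 0.28, limma, adjusted p = 0.0669, 0.0305 to 0.304 over the alternatives and 0.0343 when small spherical replicate 3 was left out). The brighter probe of the same gene averaged 123 ± 10.2 and 136 ± 31.2 (0.12 ± 0.24), so the probes of SYNCRIP disagreed. CTBP2, a transcriptional corepressor, read 55.7, 44.6, 35.5 and 65 and then 24.3, 38, 28.4 and 28.1 (-0.74 ± 0.20, adjusted p = 0.11). Its groups overlapped through small spherical replicate 3, and it passed without that array (-0.89 ± 0.20, adjusted p = 0.0343). ARID1A, a subunit of the SWI/SNF chromatin remodelling complex, read 28, 19, 18.4 and 17 and then 9.65, 11.4, 9.68 and 8.91, with no overlap (-1.03 ± 0.29, adjusted p = 0.11). It passed without filamentous replicate 1 (-1.03 ± 0.22, adjusted p = 0.0434).

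The other genes with the smallest p-values in this direction had varied roles. GTF3C6, a subunit of the RNA polymerase III factor TFIIIC, read 45.3 to 85.2 and 22.4 to 41.4 (-0.87 ± 0.28, adjusted p = 0.185, limma). PTBP1, a splicing repressor, read 19 to 20.3 and 7 to 18 (-0.74 ± 0.25, adjusted p = 0.229), and HNRNPF, another RNA-binding protein, 73.3 to 101 and 44.7 to 62.6 (-0.60 ± 0.25, adjusted p = 0.384). SRP54, a subunit of the signal recognition particle, read 18.4 to 22.2 and 9.65 to 17.7 (-0.56 ± 0.26, adjusted p = 0.511), and AHSG, the plasma protein fetuin A, 62.8 to 73.3 and 52.4 to 59 (-0.35 ± 0.17, adjusted p = 0.557). The stages did not overlap in any of these 5 genes. They overlapped in MRPS10, a mitochondrial ribosomal protein (73.8 ± 16.4 and 49 ± 13.4), COL4A2, a basement membrane collagen (35.5 ± 17.9 and 18.7 ± 5.13), and RABL3, a Rab-like GTPase (50.3 ± 20.4 and 31.2 ± 7.45). They also overlapped in NABP1, a single-stranded DNA-binding protein (21.6 ± 12.3 and 11.2 ± 2.15), and PUS7, a pseudouridine synthase (25 ± 2.79 and 17 ± 4.43). HPRT1, a purine salvage enzyme, averaged 56.8 ± 10.2 and 38.5 ± 14 on its brighter probe (-0.63 ± 0.27, adjusted p = 0.401), and its dim probe had the opposite sign (0.37 ± 0.62). NTRK3, a neurotrophin receptor, read 3 to 10.4 and 1.35 to 4.17 (-1.37 ± 0.45, adjusted p = 0.195). It was the single lower call with the replicate number as a block on the 8 spherical arrays (adjusted p = 0.0456), from values near the dim end of the arrays.

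The balance of higher and lower probes differed with brightness. The 1014 probes were split into 4 brightness classes of nearly equal size by their mean log2 intensity over all 16 arrays, at mean intensities of about 33, 66.6 and 124. Brightness compares probes, which differ in length and labelling, and does not rank transcripts by abundance. In the dimmest class 11 of 254 probes leaned higher and 13 lower. In the second class the numbers were 17 and 8 of 253, in the third 19 and 1 of 253, and in the brightest 26 and 0 of 254. In these classes lower-leaning probes thus lay, with 1 exception, in the dimmest and second, and higher-leaning ones were most numerous among the brightest. With classes by the mean of the 8 spherical arrays instead, the counts from dimmest to brightest were 14, 16, 23 and 20 higher and 13, 7, 2 and 0 lower, so that the third class then held the most higher-leaning probes. Over the classes by the mean of 16 arrays the median difference went from -0.13 through -0.06 and -0.02 to 0.03 on the log2 scale. Probes without overlap numbered 10 higher and 5 lower, 6 and 4, 10 and 3, and 13 and 0 in those classes. By the mean of the 8 spherical arrays they numbered 11 and 5, 6 and 4, 13 and 3, and 9 and 0, with the third class again holding the most higher ones.

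The spread between arrays of a stage was widest among dim probes. Its median was 0.60 on the log2 scale in the dimmest class, then 0.39, 0.32 and 0.29. A difference above 1 on the log2 scale was found for 10.6% of the dimmest probes, 13 higher and 14 lower, and for 1.97% of the brightest, 5 higher and 0 lower. Over the alternatives the brightest class held 17 to 28 higher-leaning and 0 to 3 lower-leaning probes, 17 being the count without small spherical replicate 4. The third held 16 to 23 and 1 to 6, the second 11 to 19 and 5 to 12, and the dimmest 10 to 24 and 7 to 31. Under a block for the replicate number 4 probes of the third and 2 of the brightest class leaned lower.

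**Figure D2:**
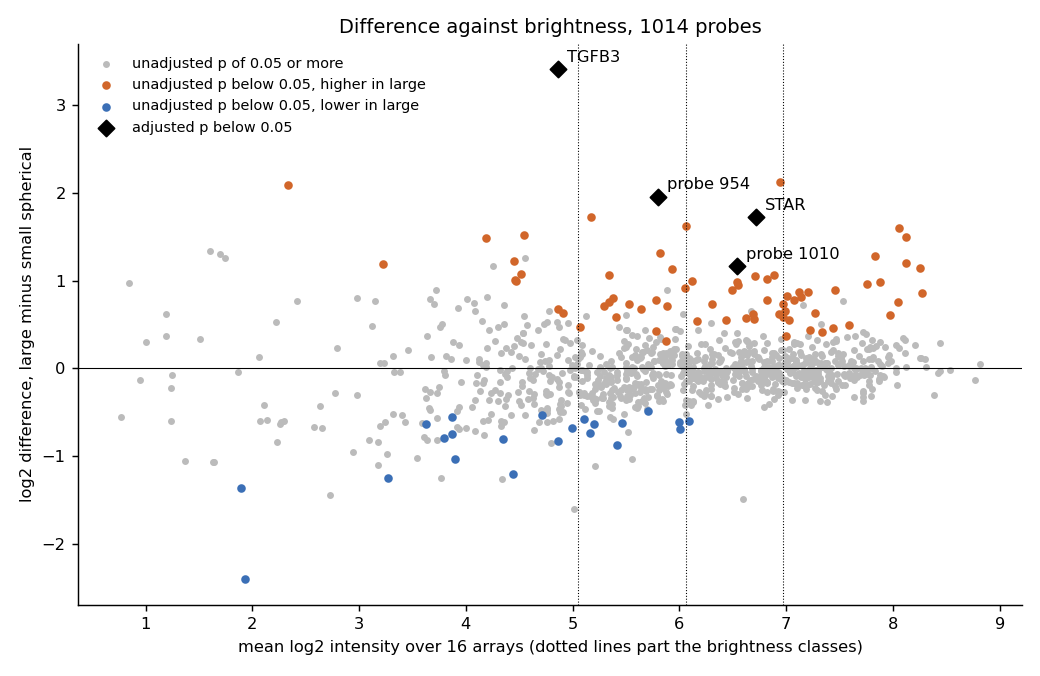
Log2 difference, large minus small spherical, of each of 1014 probes against its mean log2 intensity over 16 arrays; dotted lines part the brightness classes, colours mark an unadjusted p below 0.05 in each direction, and black diamonds the 4 called probes. Of the blue, lower-leaning probes, 13 lie left of the first line and 0 right of the last.

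**Figure D3:**
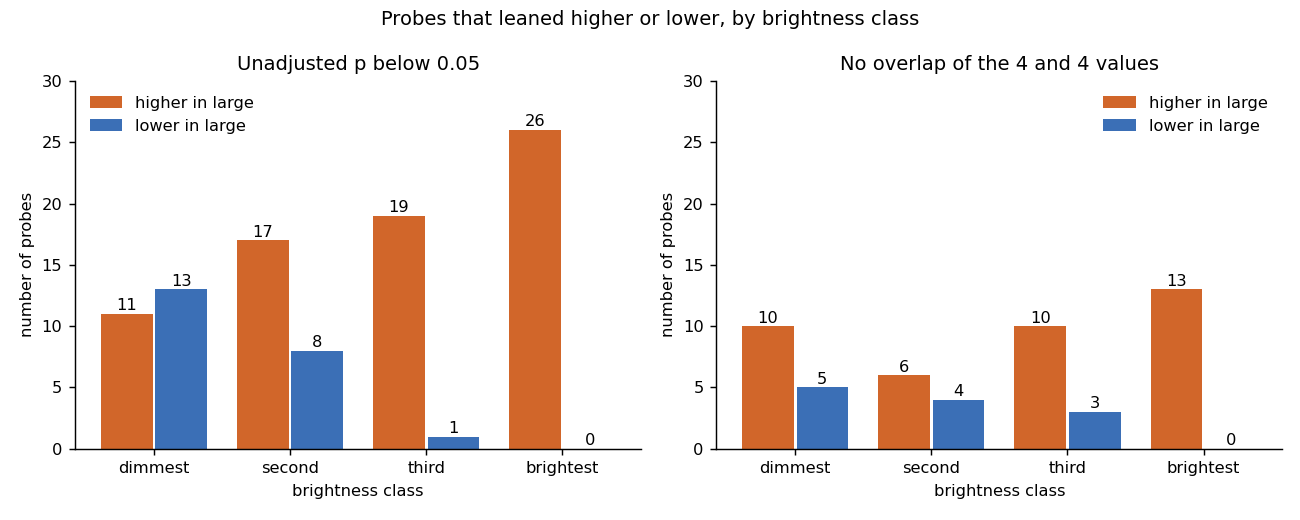
Number of probes in each brightness class that were higher (orange) or lower (blue) in large spherical conceptuses, by an unadjusted p below 0.05 (left) and by no overlap of the 4 and 4 values (right). On the left the orange bars go from 11 to 26 and the blue bars from 13 to 0 with these classes by the mean of 16 arrays; by the mean of the 8 spherical arrays the third class, with 23, exceeds the brightest, with 20.

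The genes with the smallest p of each direction show what each class held. Among the brightest, CYB5A and CALD1 led the higher side, while NUDC, a dynein cofactor, read 150.1 to 282 and 121 to 203 (-0.38 ± 0.22, adjusted p = 0.7, limma) and BRK1, a small subunit of the actin-regulating WAVE complex, 158 to 251 and 103 to 214 (-0.37 ± 0.24, adjusted p = 0.73). Both of the latter overlapped between the stages. In the third class STAR and ACSL3 led the higher side and HNRNPF and APOE, an apolipoprotein (102 ± 15.4 and 81.1 ± 11.5), the lower. In the second, CTSC and SLC39A2, a zinc importer (34.4 to 54.6 and 56.9 to 86.4, 0.71 ± 0.21, adjusted p = 0.154), stood against CTBP2 and GTF3C6. In the dimmest, TGFB3 and IL12A stood against ARID1A and NTRK3. Values at an array's maximum may be saturated. Among genes that leaned higher, those at a maximum were HSP90AB1, a cytosolic chaperone, and SAR1B, a GTPase of vesicle traffic, each on 1 array. HSP90AB1 was the only probe at the maximum of large spherical replicate 3. SAR1B was among 5 probes that shared the maximum of large spherical replicate 1. Saturation was not tested. SAR1B, singled out after its values were seen, averaged 184 ± 99.6 and 372 ± 86.5 (adjusted p = 0.15, and 0.0304 without small spherical replicate 3).

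All 4 measured genes of core oestrogen synthesis were positive in their difference (45.9% of all probes; median 0.88, against -0.03 for all probes). STAR passed, and 2 of the 4 leaned higher, as did 7.2% of all probes. CYP11A1 read 44.1, 41.4, 54.6 and 23.5 and then 118, 84.7, 49.7 and 73.2 (0.99 ± 0.31, adjusted p = 0.173, limma). Large spherical replicate 3 lay within the small spherical range. CYP19A1 read 177, 192, 181 and 142 and then 216, 218, 205 and 253, a small difference with no overlap (0.37 ± 0.18, adjusted p = 0.62). CYP17A1 was dim and spread widely, at 2.18 to 6.6 and 1.24 to 26.1 (0.77 ± 0.76, adjusted p = 0.846). Without large spherical replicate 1 the median of the list was 0.58.

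The 4 measured genes of the cytochrome b5 and HSD17B families also all had a positive difference and leaned higher (45.9% and 7.2% of all probes; median 0.86), and none passed. Besides CYB5A these were HSD17B4, a peroxisomal enzyme of fatty acid oxidation, at 32.3 to 85.1 and 97.2 to 138 with no overlap (0.89 ± 0.27, adjusted p = 0.165, limma), and HSD17B12, which also elongates fatty acids, at 60.7 ± 14.9 and 86.4 ± 9.2 (0.53 ± 0.17, adjusted p = 0.192). CYB5B, the form of the outer mitochondrial membrane, read 124, 159.7, 283 and 68.2 and then 203, 218, 412 and 324 (0.99 ± 0.39, adjusted p = 0.362). In CYB5B small spherical replicate 3 lay among the large spherical values, and the adjusted p was 0.0738 without it.

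Among steroid receptors and prostaglandin genes all 5 had a positive difference (45.9% of all probes) and 2 leaned higher (7.2%), with a median of 0.99. PTGES, a prostaglandin E synthase, read 54.8, 47.8, 80.3 and 56.2 and then 116, 118, 119 and 112, without overlap and with large spherical values close together (0.99 ± 0.27, adjusted p = 0.11, limma). It passed without filamentous replicate 1 (0.99 ± 0.22, adjusted p = 0.0475). ESR2, the oestrogen receptor beta, read 6.6, 12.6, 34.6 and 3.91 and then 22.4, 23, 31.1 and 47.3 (1.52 ± 0.57, adjusted p = 0.31). Its small spherical replicate 3 exceeded 3 of the large spherical values, and it passed without that array (2.10 ± 0.49, adjusted p = 0.0343). PGR, the progesterone receptor, was dim (1.19 to 10.4 and 3.33 to 8.91), and PTGFR, the receptor of prostaglandin F, averaged 12.8 ± 4.46 and 13.7 ± 3.42. PGRMC1, also in this list, averaged 111.5 ± 26.3 and 116.2 ± 11 (0.09 ± 0.18). An offset of 10 before log2, which shrinks dim differences, brought the median of this list to 0.29.

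The 4 measured trophoblast genes had a median difference of 1.19 (-0.03 over all probes), with 3 leaning higher (7.2% of all probes) and none past the threshold. PLAC1, a gene of the placental trophoblast, read 10.2, 9.39, 18.4 and 10.4 and then 22.4, 21.4, 28.4 and 26.2, without overlap (1.07 ± 0.28, adjusted p = 0.0887, limma). PDPN, the membrane glycoprotein podoplanin, read 54.8, 22.2, 163 and 12.6 and then 172, 148, 173 and 203 (2.12 ± 0.55, adjusted p = 0.0887). In both genes small spherical replicate 3 was the highest of its stage. Without it both passed, PLAC1 at 1.29 ± 0.27, adjusted p = 0.0304 and PDPN at 2.80 ± 0.38, adjusted p = 0.00148. SFN, the epithelial protein stratifin, averaged 96.5 ± 40.2 and 152 ± 24.5 (0.73 ± 0.31, adjusted p = 0.393), and GCM1, a trophoblast transcription factor, was dim apart from 26.2 on large spherical replicate 4. Epithelial keratins had smaller differences. KRT18 averaged 269 ± 39.9 and 263 ± 44.5 (-0.04 ± 0.18), KRT19 93.6 ± 26.6 and 118 ± 22.5 (0.36 ± 0.23) and KRT8 19.5 ± 4.6 and 24.1 ± 0.714 (0.34 ± 0.25).

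Differences of signalling genes had both signs within each list. Of 11 genes of TGF beta and growth factor signalling 3 had a positive and 8 a negative difference (45.9% and 54.1% of all probes; median -0.13). None besides TGFB3 and SMAD4 leaned, where 9.37% of all probes did. PDGFRB, a growth factor receptor, averaged 55.5 ± 9.83 and 45.6 ± 15, and IGF2, an insulin-like growth factor, was dim at 5.96 ± 3.43 and 3.59 ± 3.17. Of 15 genes of interferons and interleukins 6 were positive and 9 negative (45.9% and 54.1% of all probes; median -0.07). Beside IL12A, IL13, a T helper cytokine, leaned higher at 3 to 7.87 and 4.17 to 24.3 (1.19 ± 0.51, adjusted p = 0.4, limma). IL12B, the other subunit of interleukin 12, averaged 1.98 ± 0.858 and 4.67 ± 4.16, and CCL2, a chemokine, 10.8 ± 5.72 and 7.28 ± 6.62.

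Metabolic lists held a few leaning genes beside medians near 0. Over all probes 9.37% leaned, so few are due by that share alone in lists of 5 to 26 genes. In fatty acid activation and oxidation 6 of 7 genes were positive (45.9% of all probes; median 0.22), and ACSL3 alone leaned. ELOVL6, a fatty acid elongase, averaged 131 ± 35.5 and 164 ± 28.4, and ACADM, an acyl-CoA dehydrogenase, 134 ± 53.6 and 157 ± 36.4. Of 5 genes of cholesterol and sterol synthesis (median -0.05) none leaned. NSDHL, an enzyme of that pathway, read 82.9 to 107 and 66.5 to 78, with no overlap (-0.38 ± 0.24, adjusted p = 0.729, limma). Glucose transport and glycolysis (5 genes, median 0.01) held no leaning gene, GAPDH averaging 88.4 ± 7.46 and 79.2 ± 5.69 and LDHB, a lactate dehydrogenase, 149.9 ± 28.9 and 129.8 ± 13.8. SOD1 alone leaned among 7 genes of oxidative stress and mitophagy. ADSL, an enzyme of purine synthesis, did so among 6 genes of amino acid and nucleotide metabolism (163 ± 88.3 and 258 ± 66.3, 0.76 ± 0.34, adjusted p = 0.437). Over 26 mitochondrial genes (median -0.03) SLC25A5, an adenine nucleotide carrier, leaned higher at 63.9 to 98.9 and 106 to 141 with no overlap (0.56 ± 0.21, adjusted p = 0.29), and MRPS10 lower.

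Lists of general cell machinery held few leaning genes, where 9.37% of all probes leaned. Of 23 cytosolic ribosomal protein genes (median -0.07) RPL13A alone leaned (80.9 ± 28.3 and 135 ± 27.1, 0.78 ± 0.31, adjusted p = 0.34, limma). Translation factors (14 genes) and proteasome and ubiquitin genes (18 genes), both with a median of -0.09, held no leaning gene. Of 19 splicing and RNA-binding proteins 15 were negative and 4 positive, where 54.1% of all probes were negative, with a median of -0.11 and HNRNPF alone leaning. In the list of extracellular matrix, integrins and proteases 14 of 19 were negative (54.1% of all probes; median -0.25), and CTSC and COL4A2 leaned in opposite directions. TIMP1, a metalloproteinase inhibitor, averaged 16.1 ± 9.36 and 24.8 ± 8.16. Among 14 chaperones HSP90AB1 alone leaned, reading 108, 159.7, 434 and 25.7 and then 253, 278, 559.9 and 416 (1.6 ± 0.60, adjusted p = 0.31). Small spherical replicate 3 was far above the rest of its stage, and HSP90AB1 passed without it (2.23 ± 0.51, adjusted p = 0.0343).

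Structural and lineage lists held few or no leaning genes. Over all probes 9.37% leaned, so few are due by that share alone in lists of 6 to 19 genes. Of 12 genes of the actin cytoskeleton TMSB4X, an actin-sequestering thymosin, alone leaned, at 126 to 168 and 169 to 203 with no overlap (0.41 ± 0.17, adjusted p = 0.384, limma). Of 6 annexins and calcium-binding proteins ANXA5, a phospholipid-binding annexin, alone did, at 84.6 to 118 and 130.2 to 138 with no overlap (0.37 ± 0.15, adjusted p = 0.365). In cell cycle and chromatin (19 genes, median -0.05) CCNI, a cyclin-like protein (31.5 ± 7.86 and 46.4 ± 5.59, 0.58 ± 0.19, adjusted p = 0.195), leaned higher beside HMGB1. Secreted carriers of the yolk sac had 7 negative and 2 positive members (54.1% and 45.9% of all probes; median -0.05) and none that leaned. RBP4, the retinol carrier, averaged 35.9 ± 16.5 and 49.2 ± 21.6 on its brightest probe. Mesoderm and vascular genes had 5 negative members of 6 (54.1% of all probes; median -0.23), also without a leaning one. T, the brachyury factor of early mesoderm, read 10.4 to 12.6 and 1.35 to 28.4 (-1.10 ± 0.62, adjusted p = 0.7). Membrane traffic and lysosome (19 genes, median -0.03) held CTSC higher and RABL3 lower.

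**Figure D4:**
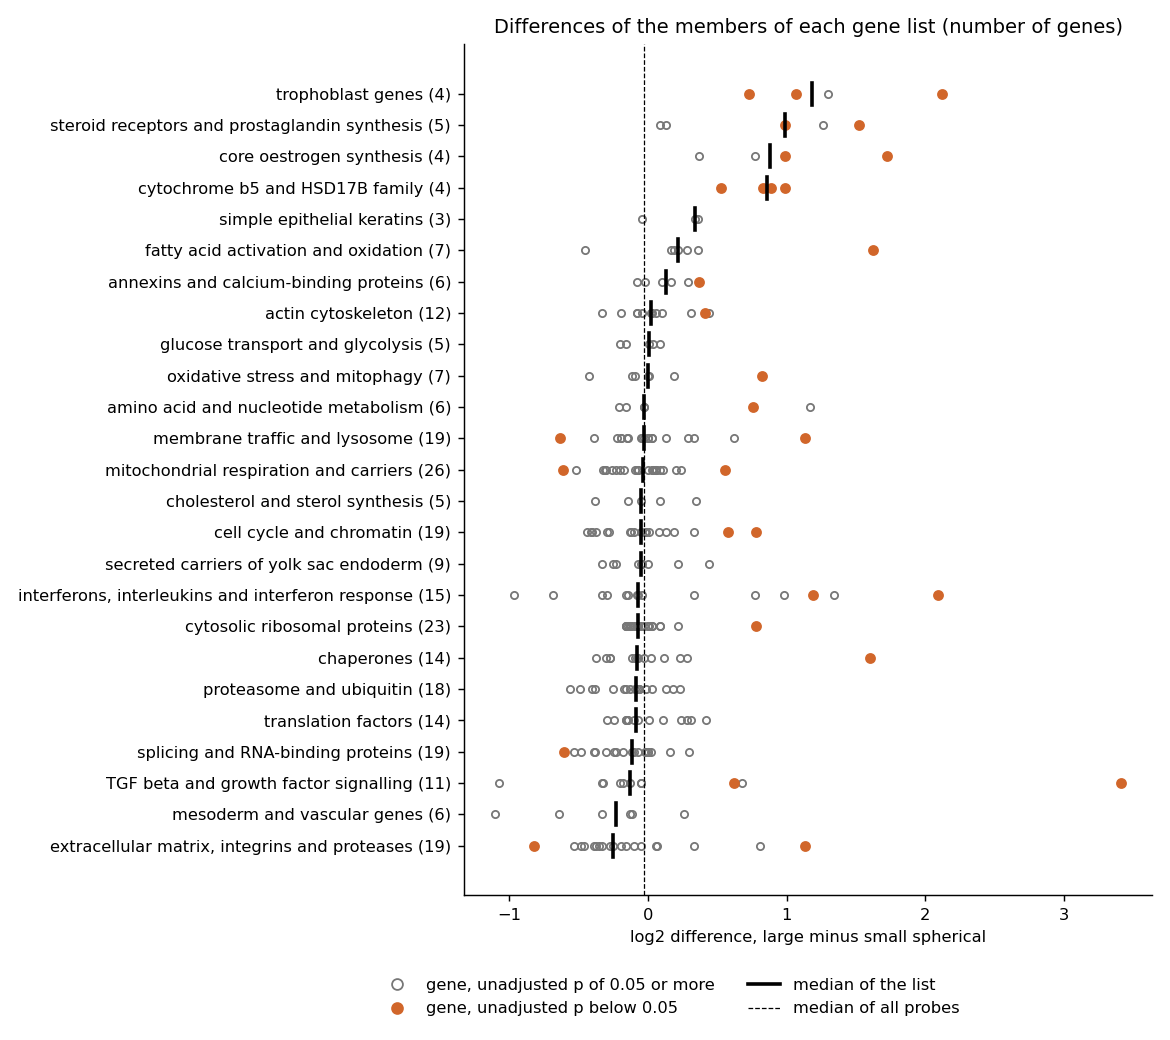
Log2 difference, large minus small spherical, of each measured gene in 25 lists, 1 probe per gene, with the number of genes in brackets; filled points have an unadjusted p below 0.05, black bars mark the median of a list and the dashed line that of all probes (-0.03). The largest medians, right of the line, are those of trophoblast genes (1.19) and of steroid receptors and prostaglandin synthesis (0.99). Next come core oestrogen synthesis (0.88) and the cytochrome b5 and HSD17B families (0.86).

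Higher-leaning probes shared a pattern among the small spherical arrays. Over the 73 probes, small spherical replicate 3 was the highest of its 4 arrays in 61.6% and replicate 4 the lowest in 65.8%, where over all 1014 probes these shares were 21.9% and 28.7%. Median intensity over the 73 probes was 67.3, 51, 79.4 and 43.2 on small spherical replicates 1 to 4 and 116, 115, 124.5 and 114 on the large spherical ones. Every large spherical array thus stood above every small spherical one in this median, and the small arrays lay further apart. Over the 22 lower-leaning probes the medians were 37, 36.6, 24.1 and 42.1 against 21.5, 21.4, 21 and 19.5, again with small spherical replicate 3 nearest to the large conceptuses. The same contrast chose these probes, so the values describe them and test nothing.

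**Figure D5:**
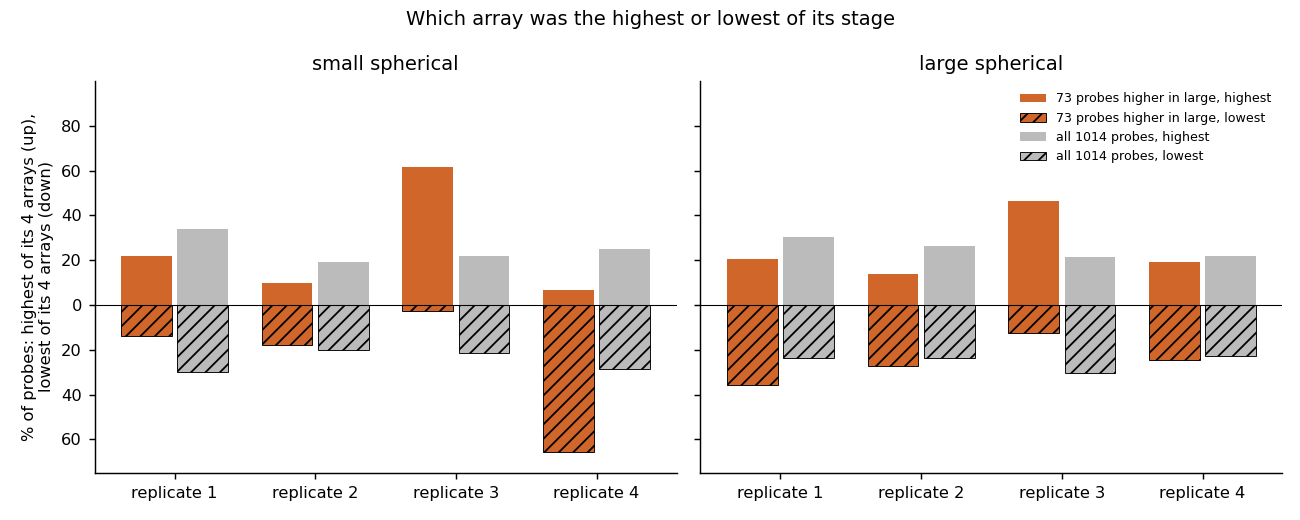
Share of probes, in percent, for which an array was the highest (upward bars) or the lowest (hatched, downward bars) of the 4 arrays of its stage, for the 73 probes that leaned higher in large conceptuses (orange) and for all 1014 probes (grey). Small spherical replicate 3 was the highest in 61.6% and replicate 4 the lowest in 65.8% of the orange set.

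Levels at the later stages, which were not tested against the spherical ones here, differed from gene to gene. STAR averaged 160.4 ± 19.4 in tubular and 153 ± 34.3 in filamentous conceptuses, against 135 ± 38.6 in large spherical ones. PDPN averaged 193 ± 34.7 and 181 ± 46.9 against 174 ± 22.4. PLAC1 averaged 30.4 ± 6.14 and 33.7 ± 10.9 against 24.6 ± 3.26. These genes thus had later means above the large spherical one. ACSL3 averaged 91.8 ± 30.6 and 69.5 ± 28.1, and CTSC 74.2 ± 20.1 and 56.3 ± 20, each between its small (35.2 and 40.7) and large (106 and 89.5) spherical means. Among genes that leaned lower, ARID1A averaged 18.4 ± 6.62 and 15.1 ± 7.4, between its small (20.6) and large (9.9) spherical means. COL4A2 averaged 33.5 ± 7.38 and 38.5 ± 9.98, near its small spherical mean of 35.5. All these genes were named by their large minus small difference, and the part of that choice in later means nearer the small spherical ones was not tested.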

How the data were processed

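Amplified conceptus RNA was hybridised to cDNA membranes, 4 arrays for each of 4 stages. The values deposited by the authors were taken as intensity on a linear scale from their range (0.12 to 805), since no unit is stated. Their scanning, background correction and normalization are not given in the sources used here. Array medians spanned 0.185 on the log2 scale, so the table was taken as normalized. The deposited intensity values were converted to log2 without an offset, and 1 constant probe was left out. Stages were compared in limma 3.58.1 (R 4.3.3; lmFit, eBayes) with 1 mean per stage over all 16 arrays, two-sided, and Benjamini-Hochberg adjustment over 1014 probes with a threshold of 0.05. The fit was tested on simulated data.

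In the platform annotation 675 probes had 1 gene symbol, 15 several and 324 none. No name was taken from a probe with several, and 668 IDs matched RefSeq without a change of symbol. A gene is given by its brightest probe. Named are the called probes, the 15 genes with the smallest p in each direction, 2 per direction in each brightness class, up to 4 per gene list and all measured markers. SYNCRIP, SAR1B, PGRMC1 and HMGB2 fall outside this rule. Members and lists were chosen with earlier results of these data known.

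Samples with the same replicate number deviated together from their stage means (Pearson 0.495, 0.353, 0.219 and 0.348 over 1014 probes for numbers 1 to 4), so the number was also fitted as a block. In all, 30 alternative settings were tried: other normalizations, filters, blocks, array sets and each array left out. One, removal of a trend along the probe number, was added after seeing the data.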

Additional observations from a re-analysis of the deposited data

Results flagged for a closer look

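Each value here lay far from the other 3 arrays of its stage, with a gap to the nearest above Dixon's critical value for 4. Gaps were taken on linear intensity, not on the log2 scale of the fit. Of 240 groups of 4 values tested, 22 did so, where chance gives about 12 (1 in 20) for independent, normally distributed values. The groups shared arrays and many of their genes were named by the same contrast, so that number is only a rough guide. No cause was tested. Small spherical replicate 3 held the highest value of its stage in TGFB3 at 14.5 (nearest 3.91), PLAC1 at 18.4 (nearest 10.4), PTBP1 at 20.3 (nearest 19.2) and RBP4 at 60.3 (nearest 30.1). Large spherical replicate 1 held the lowest value of its stage in TGFB3 at 26.1 (nearest 52.4). Small spherical replicate 1 held the highest value of its stage in probe 1010 at 60.2 (nearest 47), BRK1 at 251 (nearest 172) and SCP2 at 81.6 (nearest 45.1). Small spherical replicate 4 held the lowest value of its stage in CALD1 at 80.2 (nearest 137), AHSG at 62.8 (nearest 71.8) and KRT8 at 12.6 (nearest 20.9). Small spherical replicate 2 held the highest value of its stage in PDGFRB at 70.1 (nearest 51.9). Large spherical replicate 4 held the highest value of its stage in IL12B at 10.8 (nearest 3.33) and GCM1 at 26.2 (nearest 4.34). Large spherical replicate 2 held the highest value of its stage in S100A1 at 181 (nearest 72.7). Small spherical replicate 1 held the lowest value of its stage in TAGLN2 at 19.1 (nearest 44.3) and ELOVL6 at 78 (nearest 143). Large spherical replicate 1 held the highest value of its stage in MRPS17 at 24.3 (nearest 15). Small spherical replicate 4 held the highest value of its stage in CCNI at 43.2 (nearest 28.6). Large spherical replicate 2 held the lowest value of its stage in CCNI at 38 (nearest 48.4). Large spherical replicate 3 held the lowest value of its stage in ODC1 at 97.8 (nearest 139). Large spherical replicate 3 held the highest value of its stage in DPPA5 at 15 (nearest 8.91).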

How the results depend on the processing

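The count of called probes, 4 in the reported fit, was 7 without the dimmest 25% of probes, 9 with a variance trend and robust prior, 7 with a batch term that set the arrays numbered 1 apart and 7 after a trend along the probe number was taken out. It was 36 (32 higher, 4 lower) without both small spherical replicate 3 and filamentous replicate 1. Leaving out 1 array gave 1 to 26 calls, 1 to 24 of them higher and 0 to 2 lower, with 59 to 86 probes leaning higher and 19 to 34 lower. Lower-leaning probes numbered 10 without the dimmest 25%, 35 with the batch term and 34 on the arrays numbered 2 to 4. With the replicate number as a block, 5 probes passed and 36 leaned lower, and on the spherical arrays alone 1 lower probe passed and 47 leaned lower. Of the named genes the block added ACSL3 and, on the spherical arrays alone, also NTRK3. On those arrays IL12A passed with the block (limma, adjusted p = 0.0316) and without it (0.0328). Probe 1010 lost its call there with the block (0.157) and without it (0.0636). Against the reported fit, the fits with the block changed no other call among the named genes. Of 120 named probes 9 changed sign in any alternative, none with a difference above 0.21. The causes were not tested. Dim signal limits the values of the dimmest brightness class.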

Other observations

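The probes that leaned were unevenly spread over the probe number, whose meaning the sources used here do not give. Among probes 201 to 300, 0 leaned higher and 5 lower, and among probes 701 to 800 the numbers were 14 and 1. Those numbered above 900 held the most, 18 higher and 4 lower of 120, and 3 of the 4 called probes (954, 1010 and STAR). With that trend taken out, 7 probes passed, all higher in large conceptuses.

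The probe most often at the maximum of an array was probe 270, on 6 of the 8 spherical arrays. HMGB2, a chromatin protein, was at the maximum on 3 of them and averaged 447 ± 78.9 in small and 405 ± 44.2 in large conceptuses.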
